A study of Mus musculus with 22 samples.

Results

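Chemokine ligands are small secreted proteins that guide the movement of leukocytes, and 34 genes for them were followed here. The members were taken by gene symbol, each matched to 1 Ensembl identifier of the deposited tables, so they were 34 of 55487 genes. They comprised 18 CC ligands (Ccl genes), 14 CXC ligands (Cxcl genes with Pf4 and Ppbp), the CX3C ligand Cx3cl1 and the XC ligand Xcl1. Members lay on 8 chromosomes, with 12 on chromosome 11 and 11 on chromosome 5, where most CC and CXC ligand genes stand in clusters.

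Chemokines bind G protein-coupled receptors on leukocytes and form gradients on matrix glycosaminoglycans. Inflammatory members such as Ccl2, Cxcl1 and Cxcl10 are induced through NF-kB or interferon signalling and recruit monocytes, neutrophils or T cells. Others, such as Cxcl12, Cxcl13 and Cxcl14, act in steady-state tissues. In atherosclerosis, Ccl2, Ccl5 and Cx3cl1 are known for drawing monocytes into the vessel wall, where macrophages that load lipoprotein cholesterol become foam cells.

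All cells came from the spleens of wild-type male C57BL/6 mice, by the labels and the series description. To obtain macrophages, cultured monocytes received PMA (phorbol myristate acetate, which activates protein kinase C) at 200 ng/mL over 5 days. There were 6 macrophage libraries with ox-LDL, an oxidised form of low-density lipoprotein given at 50 µg/mL over 24 hr (replicates G to L), and 5 macrophage libraries with vehicle (A to E). Monocytes, which had no PMA, gave 5 libraries with ox-LDL at the same dose and time (7 to 11) and 6 with vehicle (1 to 6). The vehicle is not described further in the labels, and no library is tied to a mouse or a culture there, so p-values measure the spread between libraries, which may be technical.

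Libraries held between 37.3 and 50.3 times 1000000 counted reads. All 14 macrophage markers averaged at least 1 CPM in all 4 groups, so that count does not tell the cell types apart. Their sum was 59820 to 79000 CPM in ox-LDL macrophages and 56360 to 75960 CPM in vehicle macrophages. In ox-LDL and vehicle monocytes it was 14150 to 19010 CPM and 10240 to 15370 CPM. Gpnmb and Apoe made most of the macrophage sum. Cd163 averaged 4.229 and 5.655 CPM in ox-LDL and vehicle macrophages, against 4.409 and 5.775 CPM in monocytes. Every other marker of the list averaged higher in macrophages. The 13 monocyte markers did not mark the monocyte libraries: their sum was 21720 to 40010 CPM and 25120 to 35570 CPM in ox-LDL and vehicle macrophages, against 5557 to 19420 CPM and 4532 to 14480 CPM in ox-LDL and vehicle monocytes, where all 13 reached 1 CPM. The classical monocyte marker Ly6c2 averaged 1.30 and 1.28 CPM in ox-LDL and vehicle macrophages, against 87.6 and 108 CPM in ox-LDL and vehicle monocytes. The 12 dendritic cell markers summed to 486 to 573 CPM and 509 to 617 CPM in ox-LDL and vehicle macrophages, against 7953 to 11430 CPM and 8567 to 13760 CPM in ox-LDL and vehicle monocytes. Ccr7, a receptor of migrating dendritic cells, made most of the monocyte sum, at 6784 CPM with ox-LDL and 7180.0 CPM with vehicle. Neutrophil markers (14 genes) summed to 30370 and 43620 CPM in ox-LDL monocyte replicates 10 and 11 and to 46140 and 33050 CPM in vehicle monocyte replicates 5 and 6, against 4956 to 6090 CPM in the other 7 monocyte libraries. Erythroid markers (8 genes) summed to 491 CPM in ox-LDL monocyte replicate 7 and to 673 and 349 CPM in vehicle monocyte replicates 1 and 2, against 5118 to 10990 CPM in the other 8. Each set held libraries of both treatments. How the monocytes were isolated is not given in the labels.

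In all, 14 members were expressed in all 4 groups, taking a mean of at least 1 TPM (a level per transcript length, scaled to the same total in each library) as expressed. Counts per group were 14 of 34 in ox-LDL macrophages, 16 in vehicle macrophages, 20 in ox-LDL monocytes and 19 in vehicle monocytes. Cxcl1, Cxcl3 and Cxcl10 reached that level in both monocyte groups and in no macrophage group, and 0 members showed the opposite pattern. For Cxcl1 the ox-LDL monocyte mean was just above it and uneven, at 1.08 ± 1.27 TPM (SD, n = 5). Its ox-LDL monocyte replicates 9, 10 and 11 had 0.0429, 0.1775 and 0.193 CPM, within the macrophage range of 0 to 0.262 CPM. Another 14 members stayed below 1 TPM in every group: Ccl1, Ccl8, Ccl11, Ccl12, Ccl17, Ccl19, Ccl20, Ccl28, Cxcl5, Cxcl9, Cxcl11, Cxcl12, Cxcl17 and Xcl1. Ccl11, the eosinophil attractant eotaxin, had 0 counts in all 22 libraries, which allows up to 0.00305 CPM at 3 counts over them. Ccl1, Ccl8, Ccl11, Ccl19, Ccl20, Cxcl5 and Xcl1 had 0 counts in all macrophage libraries.

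**Figure D1:**
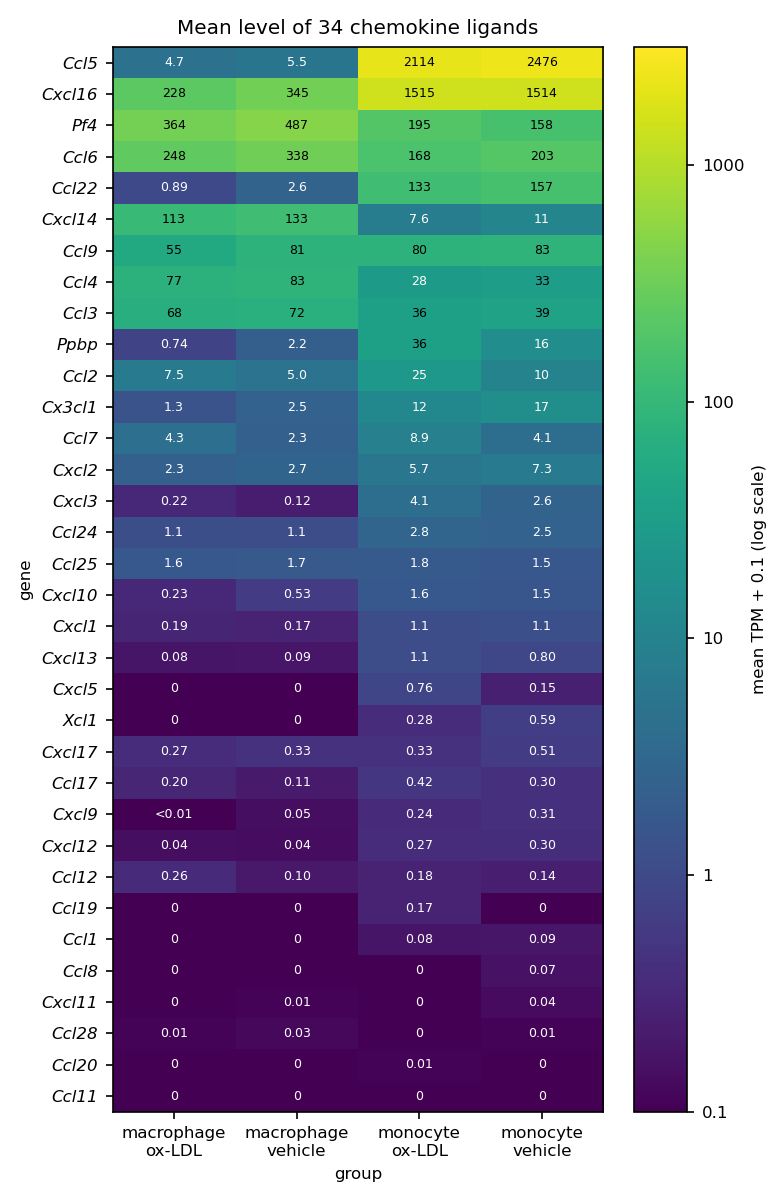
Mean level of each of the 34 chemokine ligands in the 4 groups, with groups in columns and genes in rows, coloured by mean TPM on a log scale and with the mean TPM printed in each cell. Pf4, Ccl6 and Cxcl16 stood highest in macrophages, at 364, 248 and 228 TPM with ox-LDL, and Ccl5 and Cxcl16 in monocytes, at 2114 and 1515 TPM with ox-LDL.

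The order of levels differed between the cell types. In macrophages, Pf4 had the highest mean, at 364 ± 106 TPM with ox-LDL (SD, n = 6) and 487 ± 287 TPM with vehicle (n = 5). Ccl6 came next at 248 ± 66.0 and 338 ± 156 TPM and Cxcl16 at 228 ± 55.6 and 345 ± 42.6 TPM, and Ccl6 and Cxcl16 lay within 1 SD of each other in both groups. With vehicle, the means of Ccl6 and Cxcl16 also lay within 1 SD of the Pf4 mean. Cxcl14 followed at 113 ± 21.1 and 133 ± 34.3 TPM, then Ccl4, Ccl3 and Ccl9 between 55.1 and 82.7 TPM. In monocytes, Ccl5 had 2114 ± 432 TPM with ox-LDL (n = 5) and 2476 ± 498 TPM with vehicle (n = 6), and Cxcl16 had 1515 ± 479 and 1514 ± 342 TPM. The next in monocytes were Ccl6, Pf4 and Ccl22, all between 133 and 203 TPM, with Ccl9 at 80.2 and 82.9 TPM. Summed over the 34 members, the level was 1179 ± 169.6 TPM in ox-LDL macrophages and 1567 ± 452 TPM in vehicle macrophages, against 4380.0 ± 646 TPM in ox-LDL monocytes and 4741 ± 572 TPM in vehicle monocytes.

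Macrophages were then set against monocytes, with vehicle and with ox-LDL, by edgeR's quasi-likelihood test over all genes, and a gene is called at a Benjamini-Hochberg adjusted p under 0.05. These comparisons set cell type, PMA and time in culture together, which cannot be told apart. In bulk samples, fewer cells of a type and less RNA per cell cannot be told apart either. With vehicle, 21 of 34 members passed the filter on low counts, and 3 rose in macrophages (Ccl4, Cxcl14 and Pf4) while 12 fell (Ccl2, Ccl5, Ccl22, Cx3cl1, Cxcl1, Cxcl2, Cxcl3, Cxcl9, Cxcl10, Cxcl13, Cxcl16 and Ppbp). Among all 16288 genes tested, 28.5% were called higher and 35.1% lower. With ox-LDL, 20 members passed the filter, 3 rose (Ccl3, Ccl4 and Cxcl14) and 13 fell (Ccl2, Ccl5, Ccl7, Ccl9, Ccl22, Cx3cl1, Cxcl2, Cxcl3, Cxcl5, Cxcl10, Cxcl13, Cxcl16 and Ppbp), where 30.3% of 15825 genes were called higher and 35% lower. The median log2 fold change of the tested members was -1.51 with vehicle and -1.72 with ox-LDL, against -0.089 and -0.067 over all genes tested. Ccl4 and Cxcl14 were called higher in both comparisons (66.7% of either list), where 86.8% of all genes called higher with vehicle and 84% of those called higher with ox-LDL were in both. Lower in both were 10 members (83.3% of the vehicle list and 76.9% of the ox-LDL list), against 83.6% and 86.3% of the genes called lower overall. No library is shared between the comparisons.

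**Figure D2:**
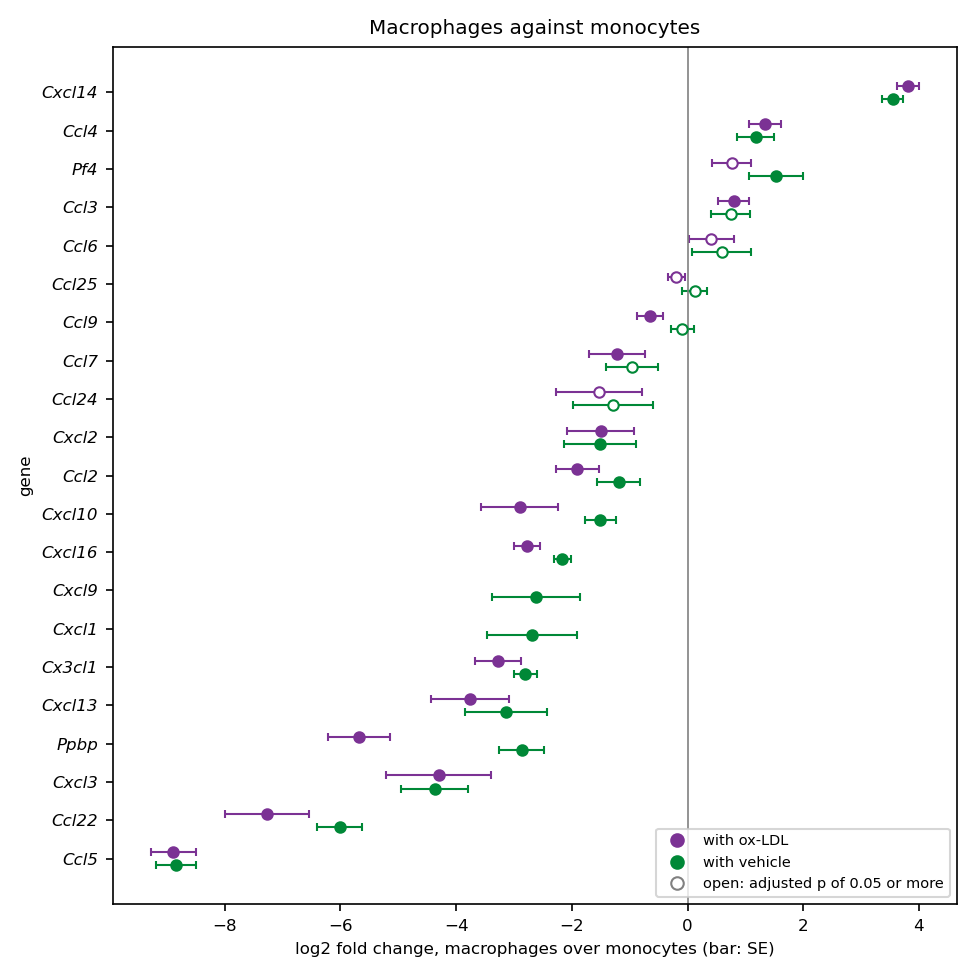
Log2 fold change of macrophages over monocytes for each tested member (x axis, with SE bars), with ox-LDL above vehicle in each gene's row and filled points where the adjusted p is under 0.05. Cxcl14 stands furthest right, at 3.81 ± 0.19 with ox-LDL and 3.55 ± 0.18 with vehicle, and Ccl5 furthest left, at -8.89 ± 0.38 and -8.84 ± 0.34; Cxcl5, with 0 counts in macrophages, is not drawn.

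Ccl5 (ENSMUSG00000035042, chromosome 11, 83525778 to 83530518, minus strand, GRCm38), also called RANTES, is a CC chemokine that attracts T cells and monocytes. With vehicle, macrophages had 3.05, 2.19, 1.10, 1.09 and 2.21 CPM in replicates A to E, against 647 (lowest), 925 (median) and 1069 CPM (highest) in monocytes. With ox-LDL, macrophages had 0.382 (lowest), 1.91 (median) and 2.30 CPM (highest), against 635, 946, 801, 559.8 and 805 CPM in replicates 7 to 11 in monocytes. The groups did not overlap, and Ccl5 fell by 8.84 ± 0.34 on the log2 scale with vehicle (SE; adjusted p = 1.03e-10) and by 8.89 ± 0.38 with ox-LDL (adjusted p = 5.73e-10). NK cell markers, a cell type known for Ccl5, summed to at most 0.303 CPM in ox-LDL macrophages and 0.234 CPM in vehicle macrophages, against 6.37 to 11.8 CPM in ox-LDL monocytes and 5.27 to 12.3 CPM in vehicle monocytes. T cell markers summed to 72.1 to 119 CPM and 91.5 to 152 CPM in ox-LDL and vehicle macrophages, against 90.1 to 205.5 CPM and 96.7 to 219.9 CPM in ox-LDL and vehicle monocytes. Cd4 (37.0 and 71.1 CPM) and Cd28 (69.15 and 51.4 CPM) made most of the sum in ox-LDL and vehicle macrophages. Cd3d, Cd3e, Cd3g, Cd8a, Lck and Bcl11b averaged at most 0.282 CPM in either macrophage group, against 6.54 CPM or more in either monocyte group. The part of NK and T cells in the Ccl5 level was not tested.

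Ccl22 (ENSMUSG00000031779, chromosome 8, 94745590 to 94751699, plus strand) is a Ccr4 ligand made by dendritic cells and macrophages that attracts regulatory and Th2 cells. Vehicle macrophages had 0.504, 1.76, 3.34, 2.47 and 2.32 CPM in replicates A to E, against 101 (lowest), 122 (median) and 176 CPM (highest) in vehicle monocytes. Ox-LDL macrophages had 0 (lowest), 0.343 (median) and 1.96 CPM (highest), against 109, 156, 129, 74.6 and 95.4 CPM in replicates 7 to 11 in ox-LDL monocytes. No macrophage library reached any monocyte library, with log2 changes of -6.01 ± 0.39 with vehicle (adjusted p = 1.65e-08) and -7.27 ± 0.72 with ox-LDL (adjusted p = 1.29e-06). Ccl17, the other Ccr4 ligand, lies 28 kb beyond Cx3cl1 on chromosome 8 and stayed at 0.200, 0.114, 0.418 and 0.304 TPM in ox-LDL and vehicle macrophages and ox-LDL and vehicle monocytes. Cx3cl1 (ENSMUSG00000031778, chromosome 8, 94772009 to 94782427, plus strand), a membrane-bound ligand of Cx3cr1 also called fractalkine, starts 20.3 kb after the end of Ccl22. It fell to 3.51 ± 0.756 CPM in vehicle macrophages (SD, n = 5), against 24.1 ± 5.82 CPM in vehicle monocytes (n = 6), a log2 change of -2.80 ± 0.20 (adjusted p = 4.22e-08). With ox-LDL it had 1.86 ± 1.25 CPM in macrophages and 17.8 ± 1.25 CPM in monocytes, a difference of -3.28 ± 0.40 (adjusted p = 8.18e-06). The dendritic cell marker sums given above moved the same way as Ccl5, Ccl22 and Cx3cl1, and their part in these falls was not tested.

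Cxcl16 (ENSMUSG00000018920, chromosome 11, 70453983 to 70459984, minus strand) is a membrane-bound ligand of Cxcr6 that also serves as a scavenger receptor for oxidised lipoprotein. Vehicle macrophages had 474, 372, 285, 348 and 396 CPM in replicates A to E, against 1315 (lowest), 1693 (median) and 1883 CPM (highest) in vehicle monocytes. Every macrophage library lay below every monocyte library, and the log2 change was -2.17 ± 0.15 with vehicle (adjusted p = 2.78e-08) and -2.77 ± 0.22 with ox-LDL (adjusted p = 1.46e-07). Its exons share 552 of 3021 bases (18.3%) with Zmynd15 on the opposite strand, which had 7.18 ± 2.50 and 11.2 ± 2.83 CPM in ox-LDL and vehicle macrophages, against 219 ± 46.0 and 258 ± 33.5 CPM in ox-LDL and vehicle monocytes. The strand setting of the counting is not given in the sources used here, so reads of Cxcl16 and Zmynd15 in the shared bases cannot be told apart.

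**Figure D3:**
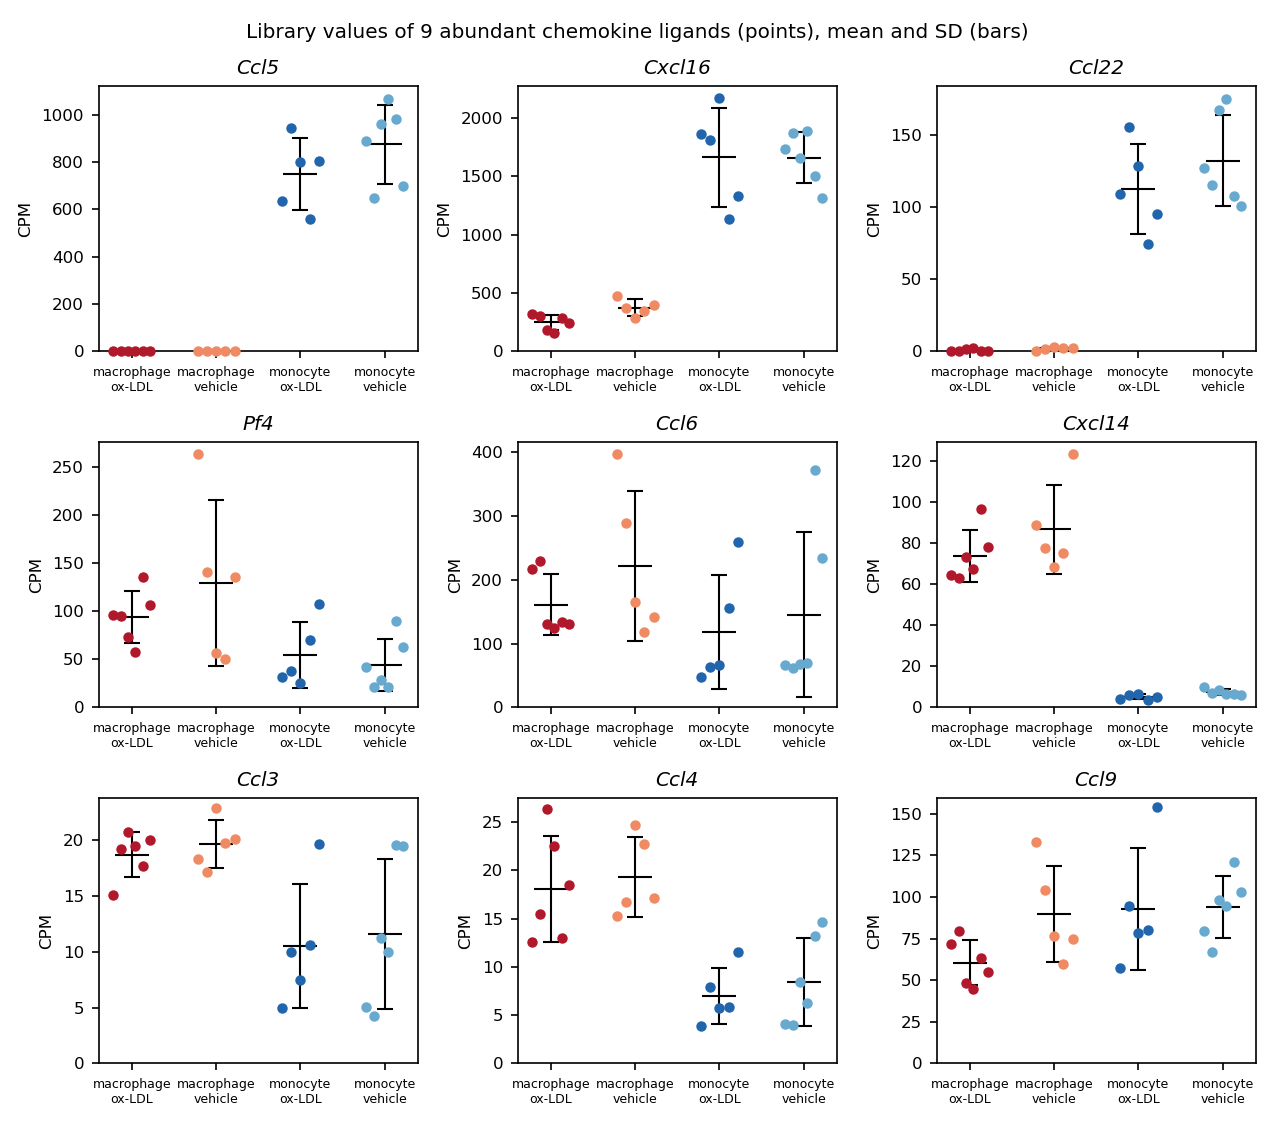
CPM of the 9 members that averaged at least 50 TPM in any group, 1 panel each, with 1 point a library and bars for the mean and SD of each group, from ox-LDL macrophages at the left to vehicle monocytes at the right. Ccl5 and Ccl22 sit near 0 in macrophages and at 559.8 and 74.6 CPM or above in monocytes, while Cxcl14 shows the reverse order.

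Cxcl14 (ENSMUSG00000021508, chromosome 13, 56288643 to 56296551, minus strand), a chemokine of epithelia and steady-state tissues that attracts monocytes and dendritic cells, had the largest rise in macrophages among the tested members in both comparisons. Vehicle macrophages had 89.0, 77.7, 68.4, 75.1 and 123 CPM in replicates A to E, against 5.97 (lowest), 6.72 (median) and 9.93 CPM (highest) in vehicle monocytes. Ox-LDL macrophages had 63.2 (lowest), 70.3 (median) and 96.5 CPM (highest), against 4.29, 6.16, 6.54, 3.48 and 5.26 CPM in replicates 7 to 11 in ox-LDL monocytes. All macrophage libraries lay above all monocyte libraries, with log2 changes of 3.55 ± 0.18 (adjusted p = 1.82e-09) and 3.81 ± 0.19 (adjusted p = 1.84e-09).

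Ccl3 and Ccl4, inflammatory CC chemokines also called MIP-1 alpha and beta, are neighbours on chromosome 11 with 13.2 kb between them. Ccl4 (ENSMUSG00000018930, chromosome 11, 83662584 to 83664683, plus strand) had 15.3, 16.7, 24.7, 22.8 and 17.1 CPM in replicates A to E with vehicle in macrophages, against 3.92 (lowest), 7.35 (median) and 14.7 CPM (highest) in vehicle monocytes. With ox-LDL the macrophages had 12.6 (lowest), 16.9 (median) and 26.4 CPM (highest), against 3.90, 7.87, 5.73, 5.84 and 11.5 CPM in replicates 7 to 11 in monocytes, and in neither comparison did the groups overlap. Ccl4 rose by 1.18 ± 0.32 with vehicle (adjusted p = 0.00566) and 1.34 ± 0.28 with ox-LDL (adjusted p = 0.000719). Ccl3 (ENSMUSG00000000982, chromosome 11, 83647844 to 83649355, minus strand) had 18.3, 17.2, 22.8, 19.8 and 20.1 CPM in replicates A to E in vehicle macrophages, against 4.24 (lowest), 10.6 (median) and 19.5 CPM (highest) in vehicle monocytes, where the 2 highest libraries were the neutrophil-rich replicates 5 and 6. Its log2 difference was 0.74 ± 0.34 with vehicle (adjusted p = 0.0723) and 0.80 ± 0.27 with ox-LDL (adjusted p = 0.0179), and the groups overlapped in both. Without monocyte replicate 5 or 6 the vehicle difference was called (adjusted p = 0.0228 and 0.0264), and the ox-LDL call was lost without monocyte replicate 9 (adjusted p = 0.053).

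Pf4 and Ppbp are CXC chemokines known from platelet granules, and with vehicle they moved in opposite directions, with 2371 bases of chromosome 5 between them. Pf4 (ENSMUSG00000029373, chromosome 5, 90772435 to 90773383, plus strand), platelet factor 4, had 264, 141, 56.5, 50.0 and 136 CPM in replicates A to E in vehicle macrophages, against 20.9 (lowest), 35.2 (median) and 90.0 CPM (highest) in vehicle monocytes. The groups overlapped, since macrophage replicates C and D lay inside the monocyte range, and Pf4 rose by 1.53 ± 0.46 (adjusted p = 0.0106). With ox-LDL it had 57.6 (lowest), 96.0 (median) and 136 CPM (highest) in macrophages, against 31.2, 37.5, 25.9, 69.8 and 107 CPM in replicates 7 to 11 in monocytes, a difference of 0.76 ± 0.34 that edgeR did not call (adjusted p = 0.0653). Pf4 was called higher with ox-LDL by DESeq2 (adjusted p = 0.0429), without monocyte replicate 11 (1.14 ± 0.29, adjusted p = 0.00419) and without the neutrophil-rich libraries (1.52 ± 0.24, adjusted p = 0.000126), over a range from 0.000126 to 0.154.

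Ppbp (ENSMUSG00000029372, chromosome 5, 90768518 to 90770063, plus strand), the precursor of the neutrophil attractant Cxcl7, had 1.09, 0.867, 0.491, 0.261 and 1.59 CPM in replicates A to E in vehicle macrophages, against 4.48 (lowest), 5.69 (median) and 9.97 CPM (highest) in vehicle monocytes. Ox-LDL macrophages had 0 (lowest), 0.390 (median) and 0.418 CPM (highest), against 10.9, 10.3, 7.87, 29.4 and 14.3 CPM in replicates 7 to 11 in ox-LDL monocytes. Ppbp fell by 2.87 ± 0.39 with vehicle (adjusted p = 2.03e-05) and by 5.68 ± 0.54 with ox-LDL (adjusted p = 8.27e-07), with no overlap in either. Of 12 platelet and megakaryocyte markers, 4 averaged at least 1 CPM in both macrophage groups. Among them, Itga2b averaged 2.82 and 3.20 CPM in ox-LDL and vehicle macrophages, against 4.17 and 2.52 CPM in ox-LDL and vehicle monocytes. Clec1b averaged 5.72 and 5.80 CPM, against 16.8 and 15.7 CPM. Gp9 had 0 counts in both macrophage groups and averaged 0.889 and 0.385 CPM in ox-LDL and vehicle monocytes. Gp1bb had 0 counts in all 4 groups, so it cannot tell them apart. The 12 platelet and megakaryocyte markers summed to 67.4 to 142 CPM and 38.8 to 116 CPM in ox-LDL and vehicle macrophages, against 26.1 to 79.9 CPM and 22.7 to 56.5 CPM in ox-LDL and vehicle monocytes, and Vwf and Itgb3 made most of the macrophage sum.

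The neutrophil attractants Cxcl1, Cxcl2 and Cxcl3, ligands of Cxcr2 in the cluster on chromosome 5, were low or absent in macrophages. Cxcl3 (ENSMUSG00000029379, chromosome 5, 90786103 to 90789600, plus strand) had 0.336, 0.163, 0.140, 0.119 and 0.0443 CPM in replicates A to E in vehicle macrophages, against 0.819 (lowest), 3.35 (median) and 6.13 CPM (highest) in vehicle monocytes, and fell by 4.37 ± 0.57 (adjusted p = 1.43e-05) with no overlap. With ox-LDL the log2 change of Cxcl3 was -4.30 ± 0.91 (adjusted p = 0.000959). Cxcl1 averaged 0.116 ± 0.107 CPM in vehicle macrophages and 0.767 ± 0.553 CPM in vehicle monocytes (log2 change -2.69 ± 0.77, adjusted p = 0.00746), with overlapping groups, and Cxcl2 averaged 2.06 ± 1.11 and 5.81 ± 5.54 CPM (-1.51 ± 0.62, adjusted p = 0.0483). Cxcl2 was highest in the neutrophil-rich monocyte replicates 5, 6 and 11, and without the 4 neutrophil-rich libraries its differences were -0.50 ± 0.50 with vehicle (adjusted p = 0.409) and -0.65 ± 0.56 with ox-LDL (adjusted p = 0.321). The vehicle call of Cxcl2 was also lost without monocyte replicate 3, 5 or 6 or macrophage replicate B, C, D or E (adjusted p = 0.0666 to 0.155), and its ox-LDL call without replicate 11, H, I or J (0.0523 to 0.157). Cxcl5, which shares their receptor, had 0 counts in macrophages and was at least 46.4-fold lower there with ox-LDL, at a floor of 3 counts over the group, against 0.509 ± 0.279 CPM in ox-LDL monocytes. With vehicle it was at least 7.08-fold lower, against 0.0967 ± 0.0647 CPM in vehicle monocytes.

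Cxcl9 and Cxcl10, interferon-inducible ligands of Cxcr3, fell too. Cxcl10 (ENSMUSG00000034855, chromosome 5, 92346638 to 92348889, minus strand) had 0.336, 0.379, 0.327, 0.404 and 0.686 CPM in replicates A to E in vehicle macrophages, against 0.962 (lowest), 1.22 (median) and 1.42 CPM (highest) in vehicle monocytes, a log2 change of -1.51 ± 0.27 (adjusted p = 0.000205). With ox-LDL its change was -2.90 ± 0.66 (adjusted p = 0.00162), and the groups overlapped there and not with vehicle. Cxcl9 averaged 0.0537 ± 0.0432 CPM in vehicle macrophages and 0.347 ± 0.316 CPM in vehicle monocytes (-2.61 ± 0.76, adjusted p = 0.00824). Cxcl13, the B cell attractant of spleen follicles, averaged 0.0373 ± 0.0517 and 0.346 ± 0.125 CPM (-3.14 ± 0.71, adjusted p = 0.00149), and 0.0318 ± 0.0385 and 0.445 ± 0.259 CPM with ox-LDL (-3.75 ± 0.68, adjusted p = 0.000257).

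Start regions of some of these genes are given because NF-kB and interferon motifs are known in this group of promoters and because Pf4 and Ppbp stand side by side but moved apart. Sequences come from RefSeq for GRCm38.p6, in which 24 of 34 members had a 300-base window from 250 bases before the gene start to 50 after it. Cxcl1, Cxcl2 and Cxcl3 are shown from 130 bases before the start, with the NF-kB consensus in capitals (and TATAAA in Cxcl3):
Cxcl1, chr5:90891115-90891294, plus strand: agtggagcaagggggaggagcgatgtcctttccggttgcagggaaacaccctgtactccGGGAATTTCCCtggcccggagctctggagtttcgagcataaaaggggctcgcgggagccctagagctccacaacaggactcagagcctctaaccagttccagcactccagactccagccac
Cxcl2, chr5:90903769-90903948, plus strand: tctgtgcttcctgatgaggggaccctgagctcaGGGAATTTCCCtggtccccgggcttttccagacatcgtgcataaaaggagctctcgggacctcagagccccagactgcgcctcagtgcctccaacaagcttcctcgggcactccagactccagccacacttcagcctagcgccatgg
Cxcl3, chr5:90785971-90786150, plus strand: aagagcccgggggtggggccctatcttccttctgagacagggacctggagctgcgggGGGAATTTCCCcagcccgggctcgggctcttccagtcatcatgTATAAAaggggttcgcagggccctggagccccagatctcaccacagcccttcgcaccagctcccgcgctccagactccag

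Cxcl10 is shown as the whole window with 2 NF-kB matches and 1 interferon response element (TTTC, any 2 bases and TTTC, or the same on the other strand) in capitals, and Cxcl14, which rose in macrophages, with 1 match of the interferon motif:
Cxcl10, chr5:92348840-92349139, minus strand: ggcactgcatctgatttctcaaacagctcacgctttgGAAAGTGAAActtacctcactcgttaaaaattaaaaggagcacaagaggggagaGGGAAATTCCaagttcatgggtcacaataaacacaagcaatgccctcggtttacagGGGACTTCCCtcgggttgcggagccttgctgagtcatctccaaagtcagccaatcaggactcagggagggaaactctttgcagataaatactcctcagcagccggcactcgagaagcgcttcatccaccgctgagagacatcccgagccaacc
Cxcl14, chr13:56296502-56296801, minus strand: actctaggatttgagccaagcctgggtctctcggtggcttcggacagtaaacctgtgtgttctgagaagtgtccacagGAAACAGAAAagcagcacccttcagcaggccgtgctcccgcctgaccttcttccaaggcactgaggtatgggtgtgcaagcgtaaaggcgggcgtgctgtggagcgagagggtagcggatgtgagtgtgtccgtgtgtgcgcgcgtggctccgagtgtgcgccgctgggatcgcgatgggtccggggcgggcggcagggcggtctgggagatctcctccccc

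Ppbp and Pf4 are shown from 130 bases before the start, with TATAAA in capitals in Ppbp and the PU.1 core GAGGAAGT (here as its complement) in Pf4:
Ppbp, chr5:90768388-90768567, plus strand: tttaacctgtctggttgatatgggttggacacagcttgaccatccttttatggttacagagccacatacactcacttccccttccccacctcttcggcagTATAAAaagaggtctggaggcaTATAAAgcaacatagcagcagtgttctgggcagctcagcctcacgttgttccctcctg
Pf4, chr5:90772305-90772484, plus strand: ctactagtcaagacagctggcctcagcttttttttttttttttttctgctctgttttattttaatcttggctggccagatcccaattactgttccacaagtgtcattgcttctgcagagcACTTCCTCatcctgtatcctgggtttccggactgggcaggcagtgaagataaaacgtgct

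Motifs were searched on both strands, and neighbouring matches of the palindrome-like NF-kB consensus overlap. The NF-kB consensus was in 6 of the 24 member windows (Ccl9, Ccl20, Cxcl1, Cxcl2, Cxcl3 and Cxcl10), against 4.51% of all 32851 windows. The same 11 bases stood 61 to 71 bases before the start in Cxcl1, 87 to 97 in Cxcl2 and 63 to 73 in Cxcl3. The interferon motif was in 3 of 24 (Ccl19, Cxcl10 and Cxcl14), against 3.44%, TATAAA in 9 of 24, against 13.6%, and the PU.1 core in 1 of 24 (Pf4), against 3.2%. A match describes letters in a window and not a bound site. Cxcl10 and Cxcl14 both held the interferon motif and moved in opposite directions between the cell types.

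Ccl2 and Ccl7, ligands of Ccr2 that call monocytes out of the bone marrow, lie 8.26 kb apart on chromosome 11. Ccl2 (ENSMUSG00000035385, chromosome 11, 82035571 to 82037453, plus strand) had 1.32, 1.38, 2.20, 1.69 and 3.39 CPM in replicates A to E in vehicle macrophages, against 2.25 (lowest), 3.85 (median) and 7.89 CPM (highest) in vehicle monocytes, and fell by 1.19 ± 0.37 (adjusted p = 0.0121) with overlapping groups. With ox-LDL it fell by 1.90 ± 0.38 (adjusted p = 0.000593). Ccl7 was at -0.96 ± 0.45 on the log2 scale with vehicle (adjusted p = 0.0782) and fell by 1.21 ± 0.48 with ox-LDL (adjusted p = 0.0414). The ox-LDL call of Ccl7 was lost without monocyte replicate 10 or 11 or macrophage replicate G, H, I or J (adjusted p = 0.0669 to 0.161), and a vehicle call was gained without replicate 1, 2 or E (0.0236 to 0.0431). Ccl6 and Ccl9, mouse ligands of Ccr1, were abundant in both cell types. Ccl6 (ENSMUSG00000018927, chromosome 11, 83587882 to 83593087, minus strand) had 397, 289, 165, 118 and 142 CPM in replicates A to E in vehicle macrophages, against 61.2 (lowest), 69.0 (median) and 372 CPM (highest) in vehicle monocytes, and was not called (0.59 ± 0.51, adjusted p = 0.324). In monocytes it was high in replicates 5, 6, 10 and 11 and at most 70.0 CPM in the others, and among macrophages it was highest in replicates A and B. Ccl9 (ENSMUSG00000019122, chromosome 11, 83572919 to 83578636, minus strand) had 133, 104, 76.4, 60.0 and 75.0 CPM in replicates A to E in vehicle macrophages, against 66.7 (lowest), 96.5 (median) and 121 CPM (highest) in vehicle monocytes, and fell by 0.65 ± 0.22 with ox-LDL (adjusted p = 0.0206), a call lost without monocyte replicate 11 (adjusted p = 0.0534).

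Ccl24 and Ccl25 made up the rest of the expressed members. Ccl25, a ligand of Ccr9 known from thymus and gut, had 1.61 and 1.74 TPM in ox-LDL and vehicle macrophages, against 1.78 and 1.55 TPM in ox-LDL and vehicle monocytes, and was called neither with vehicle (0.12 ± 0.22, adjusted p = 0.642) nor with ox-LDL (-0.19 ± 0.15, adjusted p = 0.271). Ccl24, an eotaxin that acts on Ccr3, had 1.08 and 1.07 TPM in macrophages, against 2.82 and 2.45 TPM in monocytes, where it was 2.84 and 2.85 CPM in ox-LDL replicates 10 and 11 and 3.21 and 1.85 CPM in vehicle replicates 5 and 6, against at most 1.14 CPM in the others. Cxcl12, the stromal ligand of Cxcr4, had 0.0440, 0.0400, 0.274 and 0.296 TPM in the same order of groups. Ccl19, a Ccr7 ligand of lymphoid stroma and dendritic cells, had 0.174 TPM in ox-LDL monocytes and 0 counts in the other groups. Xcl1, made by NK and T cells for Xcr1, had 0.279 and 0.588 TPM in ox-LDL and vehicle monocytes.

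Without the 4 monocyte libraries rich in neutrophil markers (replicates 5 and 6 with vehicle, 10 and 11 with ox-LDL), 4 vehicle and 3 ox-LDL monocyte libraries remained. With vehicle, 5 of 18 tested members then rose in macrophages (Ccl3, Ccl4, Ccl6, Cxcl14 and Pf4, where 29.9% of all genes did). In the same fit 7 fell (Ccl5, Ccl22, Cx3cl1, Cxcl3, Cxcl10, Cxcl16 and Ppbp, where 34.8% of all genes did). Ccl2 (-0.66 ± 0.31, adjusted p = 0.0798) and Cxcl2 were then not called, and Cxcl1, Cxcl9 and Cxcl13 did not pass the filter. With ox-LDL, 5 of 21 rose (the same 5 genes; 30% of all genes) and 12 fell (Ccl2, Ccl5, Ccl22, Ccl25, Cx3cl1, Cxcl1, Cxcl3, Cxcl5, Cxcl10, Cxcl13, Cxcl16 and Ppbp; 35.2% of all genes), and Ccl7, Ccl9 and Cxcl2 were no longer called. Ccl6 then rose by 1.71 ± 0.31 with vehicle (adjusted p = 0.000297) and 1.40 ± 0.23 with ox-LDL (adjusted p = 0.000205).

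Next, ox-LDL was set against vehicle within monocytes. Of 23 tested members, 0 were called by edgeR, where 4 of 16575 genes (0.0241%) were called, while 6 members, and 10.4% of all genes, had an unadjusted p under 0.05. Ccl2 had 4.79, 7.70, 9.40, 12.0 and 21.8 CPM in replicates 7 to 11 with ox-LDL, against 2.25 (lowest), 3.85 (median) and 7.89 CPM (highest) with vehicle. Its log2 difference was 1.33 ± 0.42 (SE; adjusted p = 0.302), and the groups overlapped. Within the neutrophil-rich libraries Ccl2 had 12.0 and 21.8 CPM with ox-LDL and 6.67 and 7.89 CPM with vehicle. Among the others it had 4.79, 7.70 and 9.40 CPM with ox-LDL and 2.25 to 4.55 CPM with vehicle. In both sets every ox-LDL library lay above every vehicle library, and the same held for Ccl7 and Cxcl5, or 3 of 23 tested members, against 2.47% of all genes tested. Cx3cl1 lay below in both sets, as did 2.14% of all genes, at 15.8 to 17.5 CPM with ox-LDL and 18.1 to 21.1 CPM with vehicle in the neutrophil-rich libraries, and at 18.2 to 19.0 CPM with ox-LDL and 19.99 to 33.1 CPM with vehicle in the others. When split by erythroid markers instead, the libraries not low in them numbered 4 with ox-LDL and 4 with vehicle. Among these, the treatments overlapped for Ccl2 (7.70 to 21.8 against 3.155 to 7.89 CPM), Ccl7 and Cx3cl1. They did not overlap for Cxcl5 or for Ppbp (7.87 to 29.4 against 4.48 to 6.84 CPM). The share of all genes that separated in this split was not counted.

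Ccl7 (ENSMUSG00000035373, chromosome 11, 82045712 to 82047525, plus strand) had 1.51, 1.497, 1.87, 3.02 and 6.03 CPM in replicates 7 to 11 with ox-LDL, against 0.388 (lowest), 1.21 (median) and 2.27 CPM (highest) with vehicle, a difference of 1.17 ± 0.49 (adjusted p = 0.435). Cxcl5 (ENSMUSG00000029371, chromosome 5, 90759360 to 90761624, plus strand) was scarce at 0.933, 0.338, 0.622, 0.222 and 0.429 CPM in replicates 7 to 11 with ox-LDL, against 0 (lowest), 0.0857 (median) and 0.197 CPM (highest) with vehicle, and its groups did not overlap (2.38 ± 0.57, adjusted p = 0.207). Ppbp had 10.9, 10.3, 7.87, 29.4 and 14.3 CPM in replicates 7 to 11 with ox-LDL, against 4.48 (lowest), 5.69 (median) and 9.97 CPM (highest) with vehicle, a difference of 1.26 ± 0.33 (adjusted p = 0.24), and replicate 10 was the highest. Without replicate 10 the difference of Ppbp was 0.82. That replicate also held the highest platelet marker sum among monocyte libraries, 79.9 CPM. The sum was 43.1, 31.6, 27.0 and 26.1 CPM in ox-LDL replicates 7, 8, 9 and 11, and 22.7 to 56.5 CPM with vehicle. The part of platelets in the Ppbp level was not tested.

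Some other settings called a few of these genes. Ccl2 and Cxcl5 were called higher in a fit with a term for the neutrophil-rich libraries, at 1.25 ± 0.23 (adjusted p = 0.0289) and 2.50 ± 0.53 (adjusted p = 0.0454), where 0.513% of genes were called higher. DESeq2 called Ppbp higher at 1.25 ± 0.33 (adjusted p = 0.0262), where it called 0.531% of genes higher. Across the alternatives tried, adjusted p-values spanned 0.0289 to 0.584 for Ccl2, 0.0454 to 0.489 for Cxcl5, 0.0262 to 0.513 for Ppbp and 0.12 to 0.728 for Ccl7.

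The ligands most abundant in monocytes were not called. Cxcl16 had 1859, 1813, 2171, 1131 and 1332 CPM in replicates 7 to 11 with ox-LDL, against 1315 (lowest), 1693 (median) and 1883 CPM (highest) with vehicle (0.03 ± 0.16, adjusted p = 0.979). The log2 difference was -0.20 ± 0.17 for Ccl5 (adjusted p = 0.755) and -0.20 ± 0.20 for Ccl22 (adjusted p = 0.784), -0.28 ± 0.59 for Ccl6 (adjusted p = 0.924) and 0.31 ± 0.46 for Pf4 (adjusted p = 0.877). Cx3cl1 had 18.4, 18.2, 19.0, 15.8 and 17.5 CPM in replicates 7 to 11 with ox-LDL, against 18.1 (lowest), 22.1 (median) and 33.1 CPM (highest) with vehicle, -0.41 ± 0.15 on the log2 scale (adjusted p = 0.372), and Cxcl14 was at -0.48 ± 0.20 (adjusted p = 0.425). The other 12 tested members lay between -0.39 and 0.73 on the log2 scale. The median over the 23 members was 0.01, against -0.002 over all genes.

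**Figure D4:**
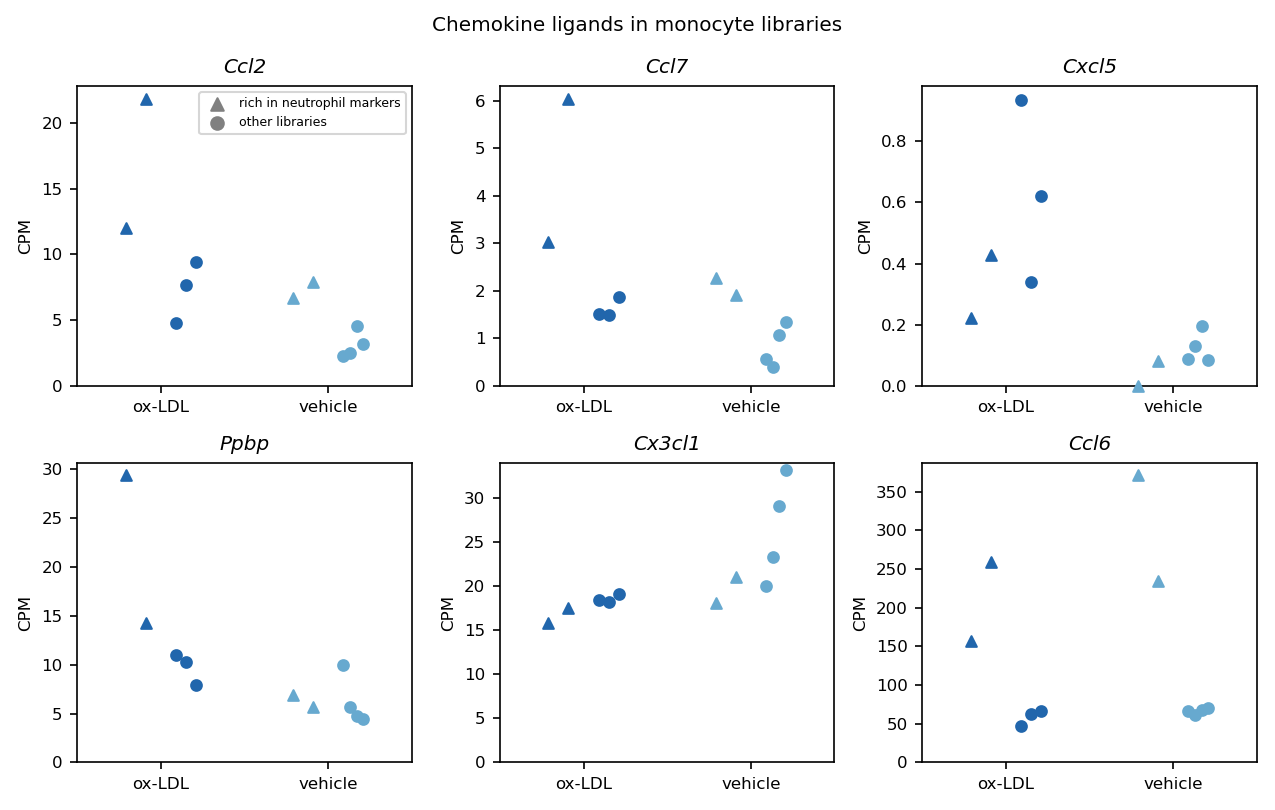
CPM of 6 chemokine ligands in monocyte libraries with ox-LDL (left) and vehicle (right), with triangles for libraries rich in neutrophil markers and circles for the others. For Ccl2, Ccl7 and Cxcl5 the ox-LDL points lie above the vehicle points of the same symbol, for Cx3cl1 they lie below them, and Ccl6 separates the symbols, at 156 CPM or more against 70.0 CPM or less, and not the treatments.

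In macrophages, ox-LDL gave calls for 342 of 14543 genes (2.35%; 142 higher and 200 lower, or 92 and 334 when scaled by total counts), and for 0 of the 17 tested chemokine ligands. By edgeR 4 of them, and 14.2% of all genes, had an unadjusted p under 0.05, and their median log2 change was -0.30, against 0.000 over all genes. Cxcl16 had 159 (lowest), 263 (median) and 316 CPM (highest) with ox-LDL, against 474, 372, 285, 348 and 396 CPM in replicates A to E with vehicle. The groups overlapped, with replicates J and I lowest, and the log2 difference was -0.59 ± 0.17 (adjusted p = 0.107). Ccl9 had 45.0 (lowest), 59.2 (median) and 79.3 CPM (highest) with ox-LDL, against 133, 104, 76.4, 60.0 and 75.0 CPM in replicates A to E with vehicle, a difference of -0.57 ± 0.19 (adjusted p = 0.173). Cxcl10 was at most 0.141 CPM in 5 of 6 ox-LDL libraries and 0.654 CPM in replicate L, against 0.336, 0.379, 0.327, 0.404 and 0.686 CPM in replicates A to E with vehicle, a difference of -1.21 ± 0.60 (adjusted p = 0.386).

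These 3 genes were called lower in some other settings. Cxcl16 was called with DESeq2 (adjusted p = 0.0152, where 2.7% of genes were called lower), with total counts (0.0433; 2.3%) and with no filter on low counts (0.0364; 0.698%), and its adjusted p ran from 0.0152 to 0.256 over all alternatives. DESeq2 also called Ccl9 (adjusted p = 0.049, with a range from 0.049 to 0.526). Cxcl10 was called without replicate L, at -2.29 ± 0.42 (adjusted p = 0.0193, with a range from 0.0193 to 0.637), where 0.832% of genes were called lower.

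Among the other ligands in macrophages, the log2 difference was -1.57 ± 0.58 for Ppbp (adjusted p = 0.22), -0.91 ± 0.40 for Cx3cl1 (adjusted p = 0.312) and -1.49 ± 0.79 for Ccl22 (adjusted p = 0.427). Ccl22 was 1.67 and 1.96 CPM in ox-LDL replicates I and J and at most 0.545 CPM in the other 4, against 0.504, 1.76, 3.34, 2.47 and 2.32 CPM in replicates A to E with vehicle. Ccl2 had 1.71 (lowest), 2.51 (median) and 4.83 CPM (highest) with ox-LDL, against 1.32, 1.38, 2.20, 1.69 and 3.39 CPM in replicates A to E with vehicle (0.61 ± 0.32, adjusted p = 0.432), and Ccl7 was at 0.90 ± 0.44 (adjusted p = 0.386). The difference was -0.46 ± 0.36 for Pf4 (adjusted p = 0.636), -0.47 ± 0.29 for Ccl6 (adjusted p = 0.52), -0.23 ± 0.15 for Cxcl14 (adjusted p = 0.524), -0.25 ± 0.38 for Ccl5 (adjusted p = 0.844) and -0.07 ± 0.10 for Ccl3 (adjusted p = 0.819). The other 4 (Ccl4, Ccl24, Ccl25 and Cxcl2) lay between -0.30 and -0.06.

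**Figure D5:**
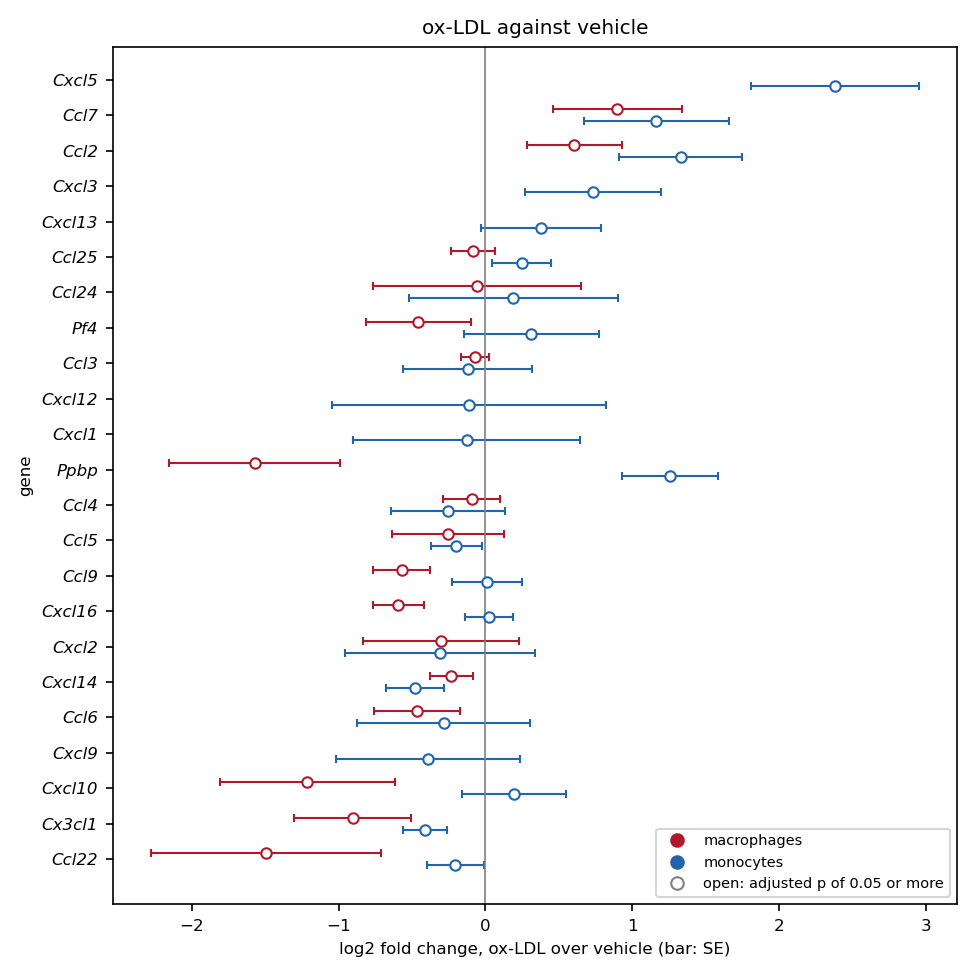
Log2 fold change of ox-LDL over vehicle for each tested member (x axis, with SE bars), macrophages above monocytes in each gene's row, all open because no adjusted p was under 0.05. Cxcl5, Ccl7 and Ccl2 stand at the right in monocytes, and Ppbp lies on opposite sides, at -1.57 ± 0.58 in macrophages and 1.26 ± 0.33 in monocytes.

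Whether ox-LDL acted differently in macrophages than in monocytes was tested as an interaction over all 4 groups. Of 23 tested members 0 were called by edgeR, where 11 of 17466 genes (0.063%) were called. An unadjusted p under 0.05 was found for 3 members (Ppbp, Cxcl16 and Cxcl9) and for 7.22% of all genes. For Ppbp the difference was -2.80 ± 0.66 (adjusted p = 0.169, and from 0.00652 to 0.337 over the alternatives), and DESeq2 called it lower, where 0.252% of genes were. For Cxcl9, which had 1 count in ox-LDL macrophages, it was -2.71 ± 1.22 (adjusted p = 0.661). The differences were -0.60 ± 0.26 for Cxcl16 (adjusted p = 0.644), -1.38 ± 0.71 for Cxcl10 (0.736), -1.25 ± 0.75 for Ccl22 (0.787), -0.55 ± 0.32 for Ccl9 (0.779) and -0.70 ± 0.55 for Ccl2 (0.854). The genes called overall were 1 higher and 10 lower with edgeR and 18 and 44 with DESeq2.

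Receptors and upstream pathway genes were counted beside the ligands. In macrophages with ox-LDL, 6 of 9 tested chemokine receptors fell, where 1.38% of all genes did. Ccr3, an eotaxin receptor, changed on the log2 scale by -1.97 ± 0.28 (SE; adjusted p = 0.0025), the Ccl2 receptor Ccr2 by -1.20 ± 0.23 (SE; adjusted p = 0.0165) and Ccr1 by -0.76 ± 0.16 (SE; adjusted p = 0.0229). Of 19 tested interferon response genes, 12 fell, among them Oasl2 (-1.19 ± 0.12, adjusted p = 0.000155), Rtp4 (-1.51 ± 0.17, adjusted p = 0.000634), Ifit3 (-2.15 ± 0.24, adjusted p = 0.000634) and the transcription factor Irf7 (-1.09 ± 0.14, adjusted p = 0.00118). By edgeR, 0 of 18 NF-kB response genes and 0 of 10 IL-4 and STAT6 response genes were called there, with 3 in either list at an unadjusted p under 0.05, where 14.2% of all genes were, while DESeq2 called Tnfaip3 of the NF-kB list higher. With 1 fit over all 4 groups, 3 of 19 tested receptors and 10 of 20 interferon genes fell, where 0.424% of all genes did. The medians in the first fit were -1.20 for receptors, -0.88 for interferon genes, -0.12 for NF-kB genes and -0.16 for IL-4 and STAT6 genes. In monocytes with ox-LDL, edgeR called 0 of 17 receptors, 0 of 20 NF-kB genes, 0 of 20 interferon genes and 0 of 12 IL-4 and STAT6 genes, with 3, 3, 8 and 1 at an unadjusted p under 0.05, where 10.4% of all genes were. With 1 fit over all 4 groups, 0 receptors, 1 NF-kB gene and 3 interferon genes fell in monocytes, where 0.624% of all genes did. DESeq2 called 1 receptor and 2 interferon genes lower in monocytes, where it called 63 of 16575 genes lower.

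The same lists were counted between the cell types, where, over all genes, 35.1% fell and 28.5% rose in macrophages with vehicle and 35% fell and 30.3% rose with ox-LDL. In vehicle macrophages, 14 of 20 NF-kB response genes fell and 1 rose, and with ox-LDL 13 fell and 2 rose. Traf1, a signalling adaptor, had 3.84 ± 0.749 CPM in vehicle macrophages and 1344 ± 172 CPM in vehicle monocytes, and Relb, a non-canonical NF-kB subunit, had 66.2 ± 10.2 CPM and 1766 ± 325 CPM. Nfkb2 changed by -2.89 ± 0.14 (SE; adjusted p = 7.41e-10) and Cd40 by -4.41 ± 0.21 (SE; adjusted p = 6.21e-10). Interferon response genes fell in 14 of 20 with vehicle, where Ifit2 rose, and in 16 of 19 with ox-LDL, led by Usp18 (-4.93 ± 0.23, adjusted p = 6.86e-10), Gbp2 (-5.13 ± 0.26, adjusted p = 1.39e-09), Irf1 (-2.65 ± 0.14, adjusted p = 1.49e-09) and Mx1 (-5.33 ± 0.30, adjusted p = 3.39e-09) with vehicle. Of 12 IL-4 and STAT6 response genes, 9 fell and 2 rose with vehicle, with Pdcd1lg2 (-8.45 ± 0.32, adjusted p = 1.03e-10) and Socs1 (-5.13 ± 0.22, adjusted p = 2.48e-10) among those that fell, and 8 fell and 2 rose with ox-LDL. Chemokine receptors fell in 11 of 16 with vehicle and rose in 4, and with ox-LDL in 12 of 16 and in 3, and the receptor calls named here are the vehicle ones. Ccr6, the receptor of Ccl20, had 0.0136 ± 0.0200 CPM in vehicle macrophages (3 counts in all) and 52.5 ± 4.35 CPM in vehicle monocytes. Cxcr5, the receptor of Cxcl13, had 0.00542 ± 0.0121 CPM (1 count) in vehicle macrophages and 25.6 ± 11.0 CPM in vehicle monocytes. Ccr7 had 2.34 ± 1.78 CPM in vehicle macrophages and 7180.0 ± 1259 CPM in vehicle monocytes.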

How the data were processed

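PolyA RNA of 22 libraries was prepared with the SMARTer Ultra Low RNA kit, per the labels' protocols. Reads were processed with STAR 2.7.9a, Subread and featureCounts 2.0.3 on GRCm38, per the submitters' processing notes; the strand setting is not given in the sources used here. Each library has 1 deposited table of 55487 genes with raw counts, CPM, FPKM and TPM (counts scaled to library size, and in FPKM and TPM also to gene length), per the file headers. The CPM, FPKM and TPM deposited by the authors followed from the counts and gene lengths for all genes, within an absolute tolerance of 1e-06.

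Counts were tested with edgeR 4.0.16 (R 4.3.3), using filterByExpr, TMM factors, the quasi-likelihood test and Benjamini-Hochberg adjustment over all genes that passed the filter, with 1 fit for each pair of groups and 1 fit over 4 groups for the interaction. Values per library are CPM with TMM factors over 22 libraries, and levels between genes are the deposited TPM. Alternatives were total counts in place of TMM, DESeq2 1.42.0, no filter, 1 fit over 4 groups, each library left out, and the libraries rich in neutrophil markers (summed over 10000 CPM) or low in erythroid markers (under 1000 CPM) left out or, for the first, as a term. The erythroid alternative was chosen after seeing the data. The scripts were tested on simulated counts. No 2 replicates agreed within sampling noise, and floors of 3 counts cover counting error only. The members, lists and tests were chosen with earlier results of these data known. Members with at least 50 TPM in a group, or called under ox-LDL, were to have values per library; some scarcer members that other settings called, or that share their receptors, were added after their values were seen. From other lists, at most 4 called genes were named by adjusted p. The values of 1 gene of the receptor list are not reported here.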

Additional observations from a re-analysis of the deposited data

Results flagged for a closer look

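Of 69 sets of values tested (1 member in 1 group), 3 had a library standing apart by Dixon's test at the 95% level, where chance alone flags about 1 in 20. Cxcl2 was 11.46 CPM in ox-LDL monocyte replicate 11, against 2.28 to 4.15 CPM in the other 4 libraries, and that replicate was 1 of the 4 rich in neutrophil markers. Cxcl13 was 0.901 CPM in ox-LDL monocyte replicate 9, against 0.290 to 0.386 CPM in the others. Ccl7 was 1.173 CPM in vehicle macrophage replicate E, against 0.380 to 0.608 CPM in the others.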

How the results depend on the processing

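No paired analysis was possible because the groups share no replicate numbers. For ox-LDL in monocytes, 0 ligands were called under every alternative except DESeq2 (1) and the term for neutrophil-rich libraries (2). All genes called numbered 4, against 151 with DESeq2 (88 higher and 63 lower), 9 with no filter, 259 with 1 fit over 4 groups, 122 with the term, 0 without the neutrophil-rich and 0 without the erythroid-low libraries, and 0 to 8 with 1 library left out. Total counts gave 5 higher and 1 lower, against 4 and 0 with TMM. Cxcl16 there was -0.025 with total counts, and with 1 library left out Ccl6 ran from -0.798 to 0.280, Cxcl16 from -0.086 to 0.132 and Pf4 from -0.096 to 0.670, so none of these 3 kept its direction. For ox-LDL in macrophages, the ligands called were 1 with total counts, 2 with DESeq2, 1 with no filter and 0 to 1 with 1 library left out. All genes called numbered 342, against 698 with DESeq2, 80 with 1 fit over 4 groups and 150 to 348 with 1 library left out, the fewest without replicate B or E. For the difference, 1 ligand was called with DESeq2 and 0 otherwise, and all genes numbered 11, against 5 with total counts, 62 with DESeq2, 129 without the neutrophil-rich libraries, 4 without the erythroid-low ones and 1 to 44 with 1 library left out. The cause of these shifts was not tested. Ligands called between the cell types numbered 12 to 17 with vehicle and 14 to 17 with ox-LDL when 1 library was left out. Ligands expressed numbered 13 to 15, 15 to 16, 19 to 20 and 18 to 19 in ox-LDL and vehicle macrophages and ox-LDL and vehicle monocytes. Members below 1 TPM rest on few counts.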
